A study of Mus musculus with 6 samples.

Results

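SoxD, SoxE and glial crest genes were followed in RNA of neural crest cells (NCCs) from embryos with deleted alleles of BAF155 and BAF170, a pair of core subunits of the BAF chromatin remodeling complex. The genes were listed by name, with earlier results of these libraries known: Sox5 and Sox6 of the SoxD group, Sox8, Sox9 and Sox10 of the SoxE group, Foxd3, Erbb3 and Fabp7. All 8 were found among the 46983 genes of the count table, and 6 of them passed the filter on low counts that left 13961 genes to be tested, while Sox8 and Foxd3 did not. RNAseq was performed on GFP+ cells sorted from mouse embryos at E11.25, with 3 control libraries and 3 libraries deficient in both subunits. All embryos carried Wnt1 Cre/+ and Rosa26 mTmG/+, with flox/+ at BAF155 and at BAF170 in the controls and flox/flox at both in the deficient embryos. The controls had thus lost 1 copy of each gene, and the sorted GFP+ cells include descendants of the dorsal neural tube, where Wnt1 Cre is also active. The deposited values are counts of reads per gene, and levels are given as CPM, counts scaled to library size, with sizes normalized by the TMM method.

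SoxE proteins are transcription factors of the early neural crest. Sox10 is kept in glial and melanocyte precursors and is needed for peripheral glia, Sox9 acts in crest formation and drives cartilage, and Sox8 overlaps with both. SoxD proteins bind the same short DNA motif but have no activation domain of their own, and Sox5 and Sox6 work with Sox9 on cartilage genes. Foxd3 is a repressor that specifies crest cells and keeps them undifferentiated, Erbb3 is the neuregulin receptor through which Schwann cell precursors survive and migrate, and Fabp7 is the fatty acid binding protein of radial glia and early crest glia.

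The stretches before the transcription starts of Sox5, Sox6 and Fabp7 are shown because the SoxD pair share a family of binding motifs and Fabp7 is the most abundant of the genes per length. RefSeq promoter entries on GRCm38.p6 were matched for 5 of the 8 genes, namely Sox5, Sox6, Sox8, Foxd3 and Fabp7, in 10 windows of which 6 belong to Sox6. Each window holds the 250 bases before a start, 5′ to 3′ in the direction of transcription. Capitals mark matches on either strand to ACAAAG or ACAATG, the cores that Sox proteins bind, and to GGAATG, the core that Tead factors bind, and no matches overlapped. The Sox5 window (chr6:143947107-143947356, minus strand) lies inside the gene as GENCODE draws it, the Sox6 window (chr7:116038745-116038994, minus strand) is the outermost of its 6, and the Fabp7 window is chr10:57784673-57784922 on the plus strand.
Sox5: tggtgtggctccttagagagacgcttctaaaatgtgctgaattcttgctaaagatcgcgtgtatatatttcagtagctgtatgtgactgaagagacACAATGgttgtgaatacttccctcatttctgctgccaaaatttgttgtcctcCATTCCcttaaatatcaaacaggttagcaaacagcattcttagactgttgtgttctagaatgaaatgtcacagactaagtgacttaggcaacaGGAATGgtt
Sox6: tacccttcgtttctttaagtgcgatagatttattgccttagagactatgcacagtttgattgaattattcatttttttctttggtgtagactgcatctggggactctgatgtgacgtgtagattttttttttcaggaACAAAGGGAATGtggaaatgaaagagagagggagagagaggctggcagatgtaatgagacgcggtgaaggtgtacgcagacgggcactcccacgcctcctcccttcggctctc
Fabp7: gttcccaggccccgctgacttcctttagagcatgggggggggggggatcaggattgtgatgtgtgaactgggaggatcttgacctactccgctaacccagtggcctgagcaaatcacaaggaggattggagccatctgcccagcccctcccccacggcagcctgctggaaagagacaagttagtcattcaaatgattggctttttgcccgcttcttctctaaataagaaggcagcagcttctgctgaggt
The Sox5 window held 1 ACAATG and 2 GGAATG matches, and the printed Sox6 window 1 ACAAAG directly followed by 1 GGAATG. The Fabp7, Foxd3 and Sox8 windows held none of the 3 motifs. Over the 10 windows ACAAAG was found in 5, ACAATG in 3 and GGAATG in 3, beside 16.5%, 10.7% and 12.6% of all 32851 RefSeq windows of this length. The 6 Sox6 windows belong to a single gene, so these counts describe the letters before these starts and were not tested. The 5 windows with ACAAAG are all Sox6 windows, at 45.2%, 60.8%, 41.6%, 41.6% and 41.6% GC. The Sox5 window had 39.6% GC, and the median over all windows was 52.4%. The part of base composition in the matches was not tested.

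The 6 libraries held 8191219 to 19808620 counts, the 3 deficient libraries being the deepest. Smarcc1, which encodes BAF155, had 35.1 to 55.0 CPM in the controls and 24.5 to 29.4 CPM in the deficient libraries, and Smarcc2, which encodes BAF170, had 89.9 to 92.9 and 82.3 to 86.8 CPM. Smarcc1 was called lower (log2 fold change −0.71, adjusted p = 0.0676) and Smarcc2 was not called (−0.11, adjusted p = 0.251), and counts over whole genes do not show whether the floxed exons were lost. Macrophage markers were plentiful: all 12 were detected in all 6 libraries, with 0 of them at 0 and 0 called. They summed to 11651 to 13527 CPM in the controls and 13630 to 14905 CPM in the deficient libraries. The endothelial markers summed to 174 to 196 against 200 to 212 CPM, of which Kdr alone made up 165 to 186 against 190 to 203 CPM. The erythroid ones summed to 22.1 to 67.3 against 16.9 to 22.8 CPM. Markers of embryonic crest and neural cells were scarcer than the macrophage ones. Mesenchymal crest markers summed to 176 to 288 against 105 to 135 CPM (8 of 15 tested called lower). Sensory neuron markers summed to 40.2 to 94.6 against 23.8 to 36.9 CPM (5 of 10). Neural tube markers summed to 123 to 142 against 122 to 128 CPM (3 of 12), of which Lhx2 alone made up 82.9 to 101 against 99.7 to 110 CPM. Of the 12 tested neural tube markers, 10 had negative log2 fold changes, and the median was −1.02. Over all genes tested, 4.88% were called lower, by the thresholds given in the next paragraph. Fewer cells of a type in a bulk library and less RNA of a gene per cell cannot be told apart. The part of these markers in the results below was not tested beyond a rescaling of the libraries to 26 embryonic markers, whose values are given where they change a result.

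Sox9 and Sox10 were the members called lower, with Sox9 reduced 3.37-fold and Sox10 3.97-fold. Calls required edgeR's quasi-likelihood test to give an adjusted p (Benjamini-Hochberg) no higher than 0.1, with log2 fold changes beyond ±0.58 and levels averaging 2 CPM or more. These 2 of 6 tested members stand beside 681 of 13961 genes called lower, a background of 4.88%, and on the adjusted p alone the same 2 stand beside 7.75% of genes. No member was called higher. All 6 tested members had negative log2 fold changes, with a median of −0.82 beside −0.02 over all genes, although 4 of them (Sox5, Sox6, Erbb3 and Fabp7) turned positive when the libraries were scaled to embryonic markers. That scaling moved the median of all genes to 1.15 and called 10087 of the 13961 genes higher. The members were chosen with earlier results of these libraries known, so these counts are not independent evidence of a direction.

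**Figure D1:**
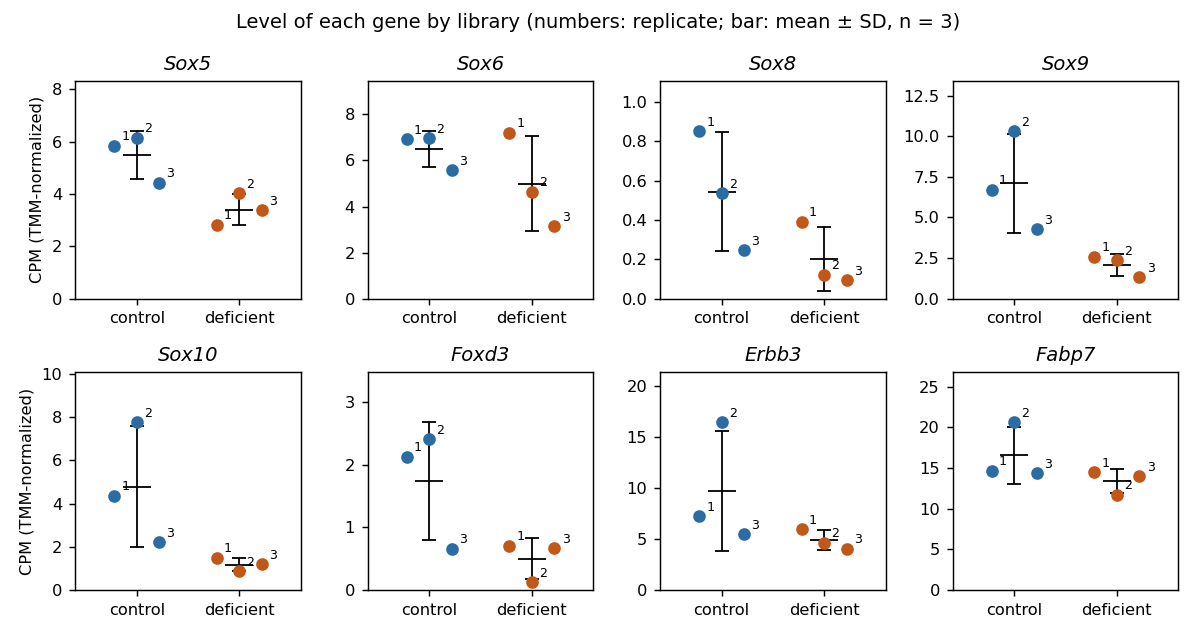
Level of each of the 8 genes in CPM (vertical axes, each starting at 0) in the control (blue) and deficient (orange) libraries, with the replicate number beside each point and bars for the mean ± SD of 3 libraries. The groups separate for Sox5, Sox9 and Sox10 and overlap for the other genes, and control replicate 2 is the highest control for every gene except Sox8. Over all genes tested, 16.4% separate in the lower direction.

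Sox9 (ENSMUSG00000000567, chromosome 11 of GRCm38 from 112782224 to 112787760, plus strand, 3 exons) stood at 6.70, 10.3 and 4.27 CPM in controls (replicates 1 to 3, the order used throughout) against 2.58, 2.38 and 1.33 CPM in deficient libraries. The groups did not overlap, as held in the lower direction for 16.4% of all genes tested. That share is the background for later genes that were lower without overlap. The means were 7.09 ± 3.04 and 2.10 ± 0.674 CPM (SD, n = 3). This was a log2 fold change of −1.75 (standard error 0.36) at an adjusted p = 0.0534. The reads behind it were few, 192 in the 3 controls and 100 in the deeper deficient libraries. The call was lost without control replicate 1 (−1.78, adjusted p = 0.215), control replicate 2 (−1.40, adjusted p = 0.141) or deficient replicate 3 (−1.49, adjusted p = 0.149), and with scaling to embryonic markers (−0.52, adjusted p = 0.242).

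Sox10 (ENSMUSG00000033006, chromosome 15 from 79154908 to 79165240, minus strand) stood at 4.36, 7.76 and 2.22 CPM in controls against 1.49, 0.855 and 1.19 CPM in deficient libraries. The groups did not overlap, with means of 4.78 ± 2.80 and 1.18 ± 0.316 CPM (SD, n = 3), and the lowest control lay closer to the deficient libraries than to the highest control. This was a log2 fold change of −1.99 (standard error 0.45) at an adjusted p = 0.0625, on 126 and 58 reads. The call was lost without control replicate 1 (−2.04, adjusted p = 0.215), control replicate 2 (−1.47, adjusted p = 0.188), deficient replicate 2 (−1.80, adjusted p = 0.117) or deficient replicate 3 (−2.0, adjusted p = 0.202). With scaling to embryonic markers it was −0.70 (adjusted p = 0.144).

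Sox8 (ENSMUSG00000024176, chromosome 17 from 25565892 to 25570686, minus strand) was the rarest of the genes, with 8, 4 and 3 reads in the controls and 5, 2 and 2 in the deficient libraries, or 0.851, 0.535 and 0.246 against 0.392, 0.122 and 0.0950 CPM. The groups overlapped, and the gene did not pass the filter on low counts. Fitted without that filter, it was at −1.40 on the log2 scale (standard error 0.87, adjusted p = 0.445). A non-coding gene on the opposite strand shares 329 bases of exon with Sox8 and had at most 4 reads in a library.

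Within the SoxE group the mix of paralogs differed by less than the spread between libraries. Counted per kilobase of exon, Sox9 made up 50.9% ± 4.56 of the SoxE sum in the controls and 52.7% ± 10.7 in the deficient libraries (SD, n = 3). Sox10 made up 43.8% ± 4.71 and 41.1% ± 10.7, and Sox8 5.27% ± 2.60 and 6.21% ± 3.41. The ratio of Sox9 to Sox10 within a library was 1.12, 0.975 and 1.40 in the controls and 1.25, 1.97 and 0.823 in the deficient libraries. The log2 ratio differed by 0.14 (exact two-sided permutation p = 0.8, Benjamini-Hochberg adjusted p over the 7 ratios = 0.933), and its SD of 0.63 in the deficient libraries leaves room for unequal changes that 3 libraries a group cannot show.

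Sox5 (ENSMUSG00000041540, chromosome 6 from 143828425 to 144781977, minus strand) stood at 5.85, 6.15 and 4.43 CPM in controls against 2.82, 4.03 and 3.37 CPM in deficient libraries. The groups did not overlap, as held in the lower direction for 16.4% of all genes tested. Its log2 fold change was −0.67 (standard error 0.24) and was not called (adjusted p = 0.112). It passed without control replicate 3 (−0.81, adjusted p = 0.0547) and with limma-voom quality weights (−0.70, adjusted p = 0.0467), and it was 0.57 with scaling to embryonic markers. Sox5os1, a gene on the opposite strand that shares 1330 bases of exon with it, had at most 2 reads in a library.

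Sox6 (ENSMUSG00000051910, chromosome 7 from 115470872 to 116038796, minus strand) stood at 6.91, 6.96 and 5.58 CPM in controls against 7.21, 4.64 and 3.13 CPM in deficient libraries. Deficient replicate 1 had the highest Sox6 level of all 6 libraries, and the groups overlapped. Its log2 fold change of −0.39 (standard error 0.29, adjusted p = 0.403) was not called, and leaving out deficient replicate 1 or 3 moved it to −0.74 or −0.13. With scaling to embryonic markers it was 0.73 and called higher (adjusted p = 0.0844), beside a median of 1.15 over all genes.

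Sox13, the other SoxD gene, was not among the 8 and was the SoxD gene called lower. It stood at 5.53, 5.62 and 4.35 CPM in controls against 3.21, 2.32 and 1.47 CPM in deficient libraries, without overlap, and a log2 fold change of −1.16 (standard error 0.30, adjusted p = 0.0748). The call was lost without control replicate 1 (adjusted p = 0.245), control replicate 2 (0.211), deficient replicate 2 (0.123) or deficient replicate 3 (0.236), and scaling to embryonic markers left −0.02 (adjusted p = 0.96). Per kilobase of exon, Sox13 was 59.5%, 59.2% and 59.6% of the SoxD sum in the controls and 52.2%, 47.6% and 43.4% in the deficient libraries. The share of Sox6 was 21.6%, 21.3% and 22.2% against 34.1%, 27.7% and 26.8%, so that both shares separated the groups, Sox13 downwards and Sox6 upwards. The share of Sox5 overlapped, at 18.8% ± 0.626 and 22.8% ± 8.21 (SD, n = 3). Without division by exon length Sox13 was not the largest, with mean control shares of 30.2% for Sox13, 37.9% for Sox6 and 31.9% for Sox5. The shares of Sox13 and Sox6 still separated the groups in the same directions. These shares were not tested, and shares that sum to a whole cannot move independently.

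Foxd3 (ENSMUSG00000067261, chromosome 4 from 99656299 to 99658622, plus strand, 1 exon) stood at 2.13, 2.41 and 0.657 CPM in controls against 0.705, 0.122 and 0.665 CPM in deficient libraries. Control replicate 3 lay among the deficient libraries, and with 20, 18 and 8 against 9, 2 and 14 reads the gene did not pass the filter. Fitted without that filter it was at −1.69 on the log2 scale (standard error 0.53, adjusted p = 0.0315), and its mean stayed under the minimum of 2 CPM for a call. Its ratio to Sox10 was 0.656, 0.423 and 0.422 in the controls and 0.656, 0.263 and 0.757 in the deficient libraries, a log2 difference of 0.05 (exact permutation p = 1).

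Erbb3 (ENSMUSG00000018166, chromosome 10 from 128567523 to 128589652, minus strand, 28 exons) stood at 7.23, 16.5 and 5.50 CPM in controls against 5.95, 4.64 and 4.04 CPM in deficient libraries. Control replicate 2 stood well above the other 5 libraries, and control replicate 3 lay below deficient replicate 1. The log2 fold change of −0.98 (standard error 0.41, adjusted p = 0.172) was not called. It was −0.39 without control replicate 2 (adjusted p = 0.441), −1.28 and called without control replicate 3 (adjusted p = 0.0371), and 0.29 with scaling to embryonic markers. DESeq2 called it at −0.97 (adjusted p = 0.0556), as did edgeR without the filter on low counts at −0.92 (adjusted p = 0.00101).

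Fabp7 (ENSMUSG00000019874, chromosome 10 from 57784881 to 57788450, plus strand) stood at 14.7, 20.6 and 14.4 CPM in controls against 14.5, 11.7 and 14.0 CPM in deficient libraries. The groups overlapped, with means of 16.5 ± 3.52 and 13.4 ± 1.47 CPM (SD, n = 3) on 467 and 672 reads. Its log2 fold change of −0.29 (standard error 0.16, adjusted p = 0.248) was not called, and it was −0.11 without control replicate 2. With scaling to embryonic markers Fabp7 was called higher (0.91, adjusted p = 0.0337), beside a median of 1.15 over all genes.

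**Figure D2:**
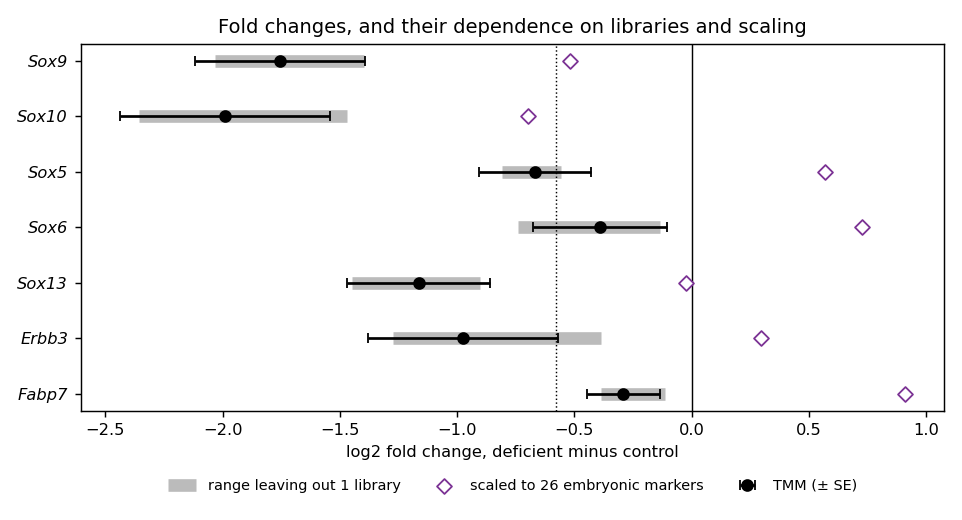
Log2 fold change (deficient minus control, horizontal axis) of the 6 tested genes and Sox13, as the TMM value ± SE (black), the range over the 6 fits that leave out 1 library (grey) and the value with libraries scaled to 26 embryonic markers (open diamonds); the dotted line is the fold change threshold of −0.58. Sox9, Sox10 and Sox13 lie below that line with every library left out, and the diamonds of Sox5, Sox6, Erbb3 and Fabp7 lie above 0.

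Compared per kilobase of exon, Fabp7 was the most abundant of the genes in the controls, at 13.2 ± 2.81 CPM per kb (SD, n = 3). Sox9 (1.71 ± 0.734), Erbb3 (1.62 ± 0.979), Sox10 (1.57 ± 0.916) and Sox13 (1.20 ± 0.164) followed, and these 4 did not differ beyond their spread. Foxd3 (0.745 ± 0.405), Sox6 (0.437 ± 0.0527) and Sox5 (0.381 ± 0.0639) came next, with neighbours again within their spread, and Sox8 was last (0.174 ± 0.0970). In the deficient libraries Fabp7 (10.7 ± 1.18) and Sox8 (0.0651 ± 0.0526) kept their places, and Erbb3 (0.811 ± 0.163) stood above Sox10 (0.386 ± 0.104) by more than the spread of either. Exon lengths are those of all annotated exons merged, which makes the long SoxD genes look low if only short isoforms are made.

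The ratio to Sox10 within each library, which no scaling of the libraries can move, separated the groups for 3 of 7 genes without passing a test. Fabp7 stood at 8.08, 6.41 and 15.3 times Sox10 in the controls and 22.7, 31.4 and 27.8 times in the deficient libraries. Erbb3 stood at 0.833, 1.07 and 1.23 times Sox10 against 1.95, 2.60 and 1.68 times, and Sox6 at 0.323, 0.185 and 0.507 against 0.957, 1.06 and 0.530 times. For these 3 genes every deficient library had a higher ratio than every control, with log2 differences of 1.55 for Fabp7, 0.99 for Erbb3 and 1.38 for Sox6. Each had an exact two-sided permutation p of 0.1, below which 3 against 3 libraries cannot go, and an adjusted p of 0.233 over the 7 ratios, so none passed a threshold of 0.05. The Sox5 ratio overlapped between groups (log2 difference 1.15, exact permutation p = 0.2, adjusted p = 0.35), as did that of Sox8 (0.47, exact permutation p = 0.5, adjusted p = 0.7). All 7 ratios share the few Sox10 reads, 14 to 58 a library, as their denominator, so they are not independent of each other. Sox10 was itself called lower, so a gene with a smaller fall or none has a higher ratio in the deficient libraries. The share of all genes whose ratio to Sox10 separates the groups was not computed.

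**Figure D3:**
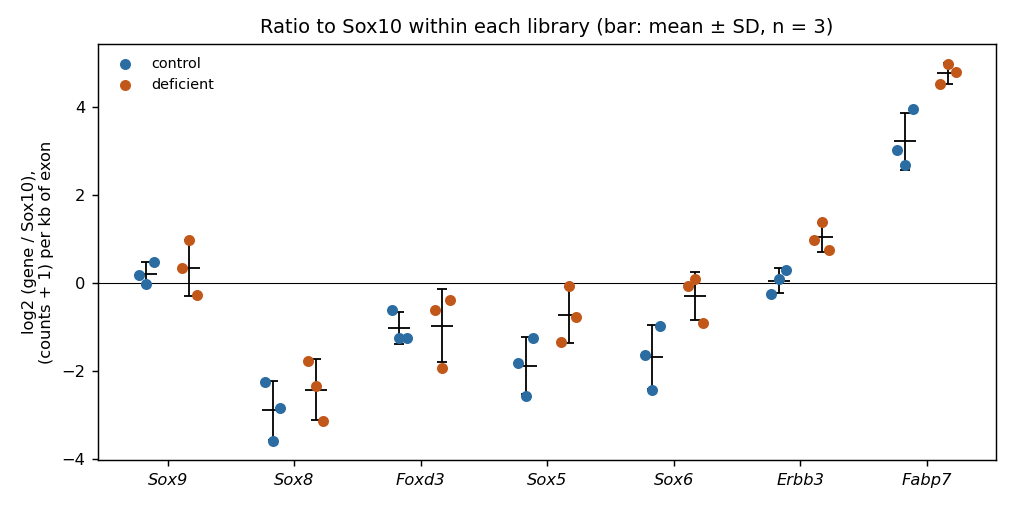
Log2 ratio of each gene to Sox10 within a library, from counts plus 1 per kilobase of exon (vertical axis), in control (blue) and deficient (orange) libraries, with bars for the mean ± SD of 3 libraries. The orange points lie above all blue points for Sox6, Erbb3 and Fabp7, and the groups overlap for Sox9, Sox8, Foxd3 and Sox5.

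The genes also shared an order among libraries of 1 group. Control replicate 2 was the highest control for 7 of the 8 genes and control replicate 3 the lowest for all 8, and the 8 genes summed to 48.7, 71.2 and 37.3 CPM in control replicates 1 to 3. The deficient libraries summed to 35.6, 28.5 and 27.8 CPM, with replicate 1 the highest for 7 of 8. Control replicate 2 also had the highest sums of mesenchymal crest markers (288 CPM) and sensory neuron markers (94.6 CPM) and the lowest sum of macrophage markers (11651 CPM), while control replicate 3 had the highest macrophage sum of the controls (13527 CPM). The lowest control sum of the 8 genes, 37.3 CPM, was thus close to the highest deficient sum.

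Of 11781 genes with a mean of at least 2 CPM, the non-members whose log2 level followed Sox10 most closely over the 6 libraries were Tbx2 (Pearson r = 0.997), Sall2 (r = 0.996) and Dpysl4 (r = 0.996). Tbx2, a T-box repressor, stood at 8.93, 13.8 and 6.07 CPM in controls against 4.15, 2.75 and 3.66 CPM in deficient libraries. All 3 were called lower, with log2 fold changes of −1.43 for Tbx2, −1.0 for the zinc finger gene Sall2 and −2.03 for Dpysl4. The 6 points share the difference between the groups and the rank of control replicate 2, and r is given as a description.

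Glial and Schwann cell precursor genes did not move as a block. Of 24 listed genes 13 were tested, 1 was called lower and 0 higher, and the median log2 fold change was −0.52. Over all genes tested, 4.88% were called lower. Ngfr, the low-affinity neurotrophin receptor of crest stem cells and Schwann cell precursors, was the gene called lower, with 5.32, 9.10 and 2.71 CPM in controls against 1.49, 1.22 and 1.38 CPM in deficient libraries (log2 fold change −2.03, standard error 0.41, adjusted p = 0.0534). Its groups did not overlap. Lgi4, a secreted ligand that Schwann cells need for myelination, passed the adjusted p threshold but not the CPM minimum (−1.74, adjusted p = 0.0975). The glial genes Cdh19, Dhh and S100b were below the filter on low counts. Cnp, an enzyme of myelinating cells and the most abundant of the list, stood at 80.5, 73.6 and 92.0 CPM in controls against 90.5, 91.3 and 93.6 CPM in deficient libraries (0.16, adjusted p = 0.215). Mbp (−0.01), Ednrb (−0.01), Egr2 (−0.01), Cryab (−0.06) and Pou3f1 (0.10) were also near 0. Lgi4 and these near-0 genes were named after their values were seen. Ngfr lost its call when control replicate 1 or 2 or deficient replicate 3 was left out, with 0 of the list then called, and scaling to embryonic markers gave −0.72 (adjusted p = 0.118).

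Among cartilage genes that Sox9 drives with Sox5 and Sox6, all 7 tested of 18 listed had negative log2 fold changes (median −0.73) and 0 were called by edgeR, with 3 at an unadjusted p under 0.05 and 1 called by DESeq2. Col2a1, the main collagen of cartilage and the most abundant of them, stood at 35.2, 55.1 and 22.7 CPM in controls against 17.5, 11.6 and 10.9 CPM in deficient libraries, without overlap (−1.49, standard error 0.40, adjusted p = 0.103). The collagen genes Col9a1 (−2.50, adjusted p = 0.049) and Col9a2 (−2.50, adjusted p = 0.0583) passed the adjusted p threshold and were kept from a call by the minimum of 2 CPM. Both were named after their values were seen. Matn1, Ucma and Snorc had no reads in any library, and Acan, the cartilage proteoglycan, had at most 0.268 CPM.

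Among ErbB receptors, ligands and regulators, 9 of 17 were tested and 2 were called lower, with a median of −0.17. The share called lower over all genes tested was 4.88%. Erbb2, the receptor with which Erbb3 pairs to signal, stood at 7.13, 8.29 and 4.27 CPM in controls against 3.92, 2.87 and 1.66 CPM in deficient libraries (−1.23, standard error 0.35, adjusted p = 0.0826). Lrig1, which promotes ErbB degradation, had 7.66, 8.70 and 5.83 against 4.54, 3.91 and 2.66 CPM (−1.0, standard error 0.25, adjusted p = 0.071). Neither gene overlapped between groups. Rnf41, a ubiquitin ligase that acts on Erbb3 and the most abundant of the list, was at 0.05 (adjusted p = 0.698), and the ligand gene Nrg1, named after its values were seen, at 0.33 (adjusted p = 0.334). Both calls were lost without control replicate 1 or 2 or deficient replicate 2 or 3, when 0 of the list were called, and with scaling to embryonic markers, which gave −0.04 for Erbb2 and 0.18 for Lrig1.

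Neural crest specifiers had 5 of 21 tested genes called lower and 0 called higher, of 25 listed, with a median of −0.77. The share called lower over all genes tested was 4.88%. Tfap2a stood at 6.91, 10.6 and 5.33 CPM in controls against 3.60, 2.51 and 3.23 CPM in deficient libraries (−1.27, adjusted p = 0.0559), and its paralog Tfap2b had 11.5, 18.1 and 9.60 against 6.03, 2.75 and 3.37 CPM (−1.70, adjusted p = 0.0583). Twist1 (−1.18, adjusted p = 0.0647), Msx1 (−1.29, adjusted p = 0.0809) and Mycn (−1.07, adjusted p = 0.0965) were the other genes called, all of them transcription factors of early crest, and Mycn was named after its values were seen. Id2, an inhibitor of bHLH factors and the most abundant, was at 0.15 (adjusted p = 0.17). Leaving out control replicate 1, control replicate 2 or deficient replicate 3 brought the count to 0, leaving out deficient replicate 2 to 1, and leaving out control replicate 3 to 8. It was also 0 with scaling to embryonic markers, where Tfap2a was at −0.03, Tfap2b at −0.51, Msx1 at −0.10 and Twist1 at 0.08.

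Other Sox family genes had 4 of 8 tested genes called lower, of 14 listed, with a median of −0.97. The share called lower over all genes tested was 4.88%. Besides Sox13, the Sox genes called were the SoxB1 gene Sox3, expressed in neural progenitors (−1.30, adjusted p = 0.0625), and the SoxC genes Sox12 (−1.33, adjusted p = 0.074) and Sox4 (−0.90, adjusted p = 0.0933). Sox11, the most abundant Sox gene by CPM and a SoxC factor of differentiating neurons and mesenchyme, stood at 167, 227 and 119 CPM in controls against 111, 68.1 and 70.9 CPM in deficient libraries, without overlap, but did not pass (−1.04, adjusted p = 0.138). The SoxB1 genes Sox1 (−0.26) and Sox2 (−0.14), markers of neural tube progenitors named after their values were seen, had overlapping groups. The count was 0 without control replicate 1 or 2 or deficient replicate 2 or 3, and with scaling to embryonic markers, where Sox3 was at −0.10, Sox12 at −0.06 and Sox4 at 0.32.

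The relatives of Fabp7 had positive values. Fabp3, Fabp4 and Fabp5 were the 3 tested of 8 listed, at log2 fold changes of 0.15, 0.17 and 0.25, every one with all deficient libraries above all controls and none called. The groups separated in that direction in 15% of all genes tested. Fabp5, an epidermal and macrophage fatty acid binding protein and the most abundant, stood at 461, 436 and 468 CPM in controls against 550, 478 and 590 CPM in deficient libraries (adjusted p = 0.0933, under the fold change threshold). The 12 macrophage markers had log2 fold changes of 0.15 to 0.25, in the same range, and the part of macrophages in the Fabp values was not tested.

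**Figure D4:**
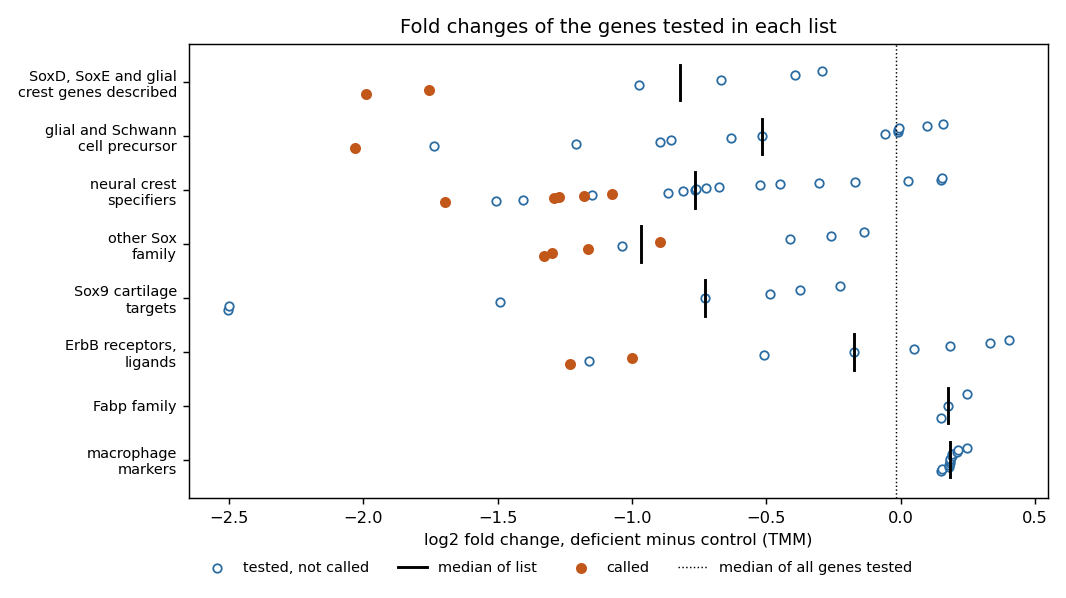
Log2 fold change (deficient minus control, TMM, horizontal axis) of every tested gene in the 8 genes described, 6 related lists and the macrophage markers, with called genes filled, list medians as black bars and the median of all 13961 genes dotted. Called genes lie between −2.03 (Ngfr) and −0.90 (Sox4), and the macrophage markers cluster between 0.15 and 0.25.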

How the data were processed

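RNAseq of FACS-sorted GFP+ NCCs was read in 3 control and 3 deficient samples. The authors made strand-specific poly(A) libraries, and the submitters' processing notes name cutadapt 1.18, FastQC 0.11.7, STAR, featureCounts, limma and the build GRCm38. The deposited values are counts per gene, without normalization. For the counting, its annotation, strandedness and handling of multi-mapped reads are not given in the sources used here. Nothing in the labels ties samples to separate litters, so p-values measure only the spread between these samples. 1 column name differs from its sample's description by 1 punctuation mark. No column belonged to a sample outside the series.

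Identifiers were named with GENCODE M21 (46488 of 46983 matched). Counts were fitted in R 4.3.3 with edgeR 4.0.16 (TMM, filterByExpr with minimum count 10 and minimum total 15, robust quasi-likelihood test, condition as the only term), with Benjamini-Hochberg adjustment over all 13961 genes tested. Calls needed an adjusted p up to 0.1, an absolute log2 fold change from 0.58 and a mean from 2 CPM, after the study's methods. Correlations used log2 CPM with a prior count of 2. Ratios to Sox10 used counts plus 1 per kilobase of merged exons and an exact permutation test in scipy 1.17.1. Figures used matplotlib 3.10.9. The common biological coefficient of variation was 12.8%. The pipeline was tested on simulated data.

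The members and lists were chosen with earlier results of these data known. The genes named are the 8 members, up to 4 called genes of each list by lowest p and its most abundant gene, Smarcc1, Smarcc2, Sox13 and the 3 genes most like Sox10. Other genes were named after their values were seen. Alternatives were DESeq2 1.42.0, limma-voom (limma 3.58.1) with and without quality weights, scaling by library totals, scaling to embryonic markers, no filter and a filter of 1 CPM in 3 libraries, other thresholds, a replicate block, and each library left out.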

Additional observations from a re-analysis of the deposited data

How the results depend on the processing

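Leaving out 1 library gave 0 to 4 members called lower, 0 to 3 glial genes, 0 to 1 cartilage genes, 0 to 2 ErbB genes, 0 to 8 specifiers and 0 to 5 other Sox genes. Over all genes, 681 were called lower with all libraries. Leaving out control replicate 1, 2 or 3 gave 0 (edgeR, 2547 at an unadjusted p under 0.05), 61 or 1219, and leaving out deficient replicate 1, 2 or 3 gave 1030, 219 or 17. Scaling to embryonic markers moved the median log2 fold change of all genes from −0.02 to 1.15, with 17 genes called lower and 10087 higher. It left 0 members, glial, ErbB, specifier and other Sox genes called lower, called 2 members higher, and reversed Sox5 (0.57), Sox6 (0.73), Erbb3 (0.29), Fabp7 (0.91), Smarcc1 (0.50) and Smarcc2 (1.06). Any change that the markers have in common is removed by it. At an adjusted p of at most 0.05, 0 members, glial, ErbB, specifier and other Sox genes were called. The adjusted p alone called 2 glial and 2 cartilage genes. Without a filter 3 glial genes and 8 specifiers were called, with limma-voom 1 cartilage gene, with DESeq2 1 cartilage gene, and with quality weights 4 glial, 2 cartilage genes and 9 specifiers. Over all genes quality weights called 1251 lower and 27 higher, and DESeq2 15 higher.

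The replicate numbers did not pair the libraries: deviations of same-numbered libraries correlated at 0.03, −0.03 and 0.29. A fit with the number as a block called 4 members (Sox5, Sox9, Sox10 and Erbb3), 3 glial and 2 cartilage genes lower, and 1143 genes in all. Of 316 alternative values, 231 were rated unchanged. For a fold change that meant the same sign and call, and for a ratio or share a move of less than 1 SD. A count was rated unchanged when it was equal or near to the main count, as with 7 specifiers for 5. The 56 alternatives for the ratios to Sox10 all moved by less than 1 SD. Among them, leaving out the division by exon length cannot move a difference between groups, so its outcome was fixed in advance. The 231 unchanged values include these and the counts of fatty acid binding protein genes called lower, which were 0 in every setting. The cause of the changes in the other alternatives was not tested. Counts of 2 to 77 reads a library limit Sox8, Foxd3, Sox10 and Sox9 most.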

Other observations

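Crest fates that branch near the glial lineage were sparsely represented. Of 8 listed melanocyte genes 2 were tested. Kit, the receptor of melanoblasts that other cells also carry, was called lower, at 5.0, 5.22 and 3.28 CPM in controls against 2.27, 2.38 and 2.14 CPM in deficient libraries (log2 fold change −0.98, adjusted p = 0.0777 from edgeR). Mitf, the melanocyte regulator that macrophages also express, had 58.0, 56.2 and 63.2 CPM against 67.0, 66.2 and 68.8 CPM (0.19, adjusted p = 0.113), while the melanocyte gene Dct was at most 1.07 CPM and at 0 in control replicate 1. Of 8 autonomic genes 4 were tested, all with negative values (median −1.34) and 0 called. Ret, the receptor of enteric and sympathetic precursors, stood at 1.91, 3.88 and 0.821 CPM in controls against 0.783, 0.611 and 0.332 CPM in deficient libraries, and Gata3 1.6, 3.21 and 2.05 against 0.862, 0.428 and 0.570 CPM. Neither overlapped between groups, and both passed the adjusted p threshold (0.0911 and 0.0625) but not the CPM minimum. These genes were named after their values were seen.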
